A study of Mus musculus with 10 samples.

Results

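The small nucleolar RNA (snoRNA) host genes Gas5 and Snhg were followed in 4sU-labelled RNA and in KLF3 and KLF1 binding data from mouse erythroid lines. Members were every row of the deposited RNA table named Gas5 or Snhg with a number, which gave 12 of 23309 named rows, together with the peaks that the authors assigned to those genes. The rule reads names, but the group was proposed with the deposited fold changes and peaks known, so their values are given as a description without a test of the group. J2E-KLF3-ER is the J2E line carrying KLF3, a transcriptional repressor, fused to an estrogen receptor domain that 4-hydroxytamoxifen activates, and its RNA was sequenced in 3 libraries, 1 each for clone A, clone C and clone E, all given 200 nM tamoxifen. J2E is an immortalised wild-type fetal liver erythroid line without a transgene, and of its 3 RNA libraries 2 received tamoxifen and the third ethanol. RNA in both lines was labelled with 500 µM 4-thiouridine (4sU) for 30 minutes, so that the captured RNA was newly made. KLF3 binding was read with an estrogen receptor antibody in J2E-KLF3-ER clone C, and KLF1 binding with a KLF1 antibody in K1-ER, an erythroblast line null for Klf1 with a tamoxifen-inducible KLF1-ER fusion (clones A and C), each after 3 hours of tamoxifen, from 3 pooled replicates and with an input library of its own.

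Host genes of this kind are transcribed and spliced, after which snoRNAs are cut from the introns and guide ribose methylation (box C/D class) or pseudouridylation (box H/ACA class) of ribosomal and other RNA. The joined exons of Gas5 and the Snhg genes encode no known conserved protein, and several of these RNAs are removed by nonsense-mediated decay, a pathway coupled to translation. Many snoRNA host genes, coding or not, start transcription at a pyrimidine tract, as ribosomal protein genes do. KLF1 and KLF3 belong to the same family and bind CACCC-box and GC-rich sites.

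The RNA table gives 1 FPKM value per line (fragments per kilobase, scaled to library size), pooled by the authors over 3 libraries, so no error can be set beside a level and the depth of each library is unknown. The authors' fold changes run J2E-KLF3-ER over J2E, and a gene is called here when their q-value is below 0.05. All J2E-KLF3-ER libraries were induced, so clone and line differences cannot be told apart from activation of the fusion. In bulk RNA, fewer cells of a type and less RNA per cell cannot be told apart. Erythroid markers had a row for 14 of 17 genes, summing to 612 FPKM in J2E-KLF3-ER and 836 FPKM in J2E in the authors' deposited table. Of the 14, 4 fell (Epor, Gfi1b, Klf1 and Slc4a1), beside 1.9% of all tested genes. The median log2 fold change of the 14 was -0.33, with 12 below 0 and 2 above. Megakaryocyte markers summed to 188 and 167 FPKM in J2E-KLF3-ER and J2E, and myeloid markers to 31.4 and 39.0 FPKM. In the same order, the list used for mast cells summed to 1.26 and 1.99 FPKM and lymphoid markers to 1.26 and 2.01 FPKM. Fcer1a and Mcpt8, both on the list used for mast cells, were at 0 in both lines. Whether these marker differences bear on the host genes was not tested.

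Promoter sequences of members are shown first, and whether motif matches in them bear on binding was not tested. Promoter windows run from 250 bases before to 50 after the annotated start (RefSeq, GRCm38.p6) and were found for 10 of the 12 members; Snhg4 and Snhg6 are named only. Capitals mark matches to CCNCNCCC, a loose form of the KLF recognition sequence, on either strand. Shown are Gas5 (chr1:161034916-161035215, plus strand), the called member, with the highest KLF1 peak at a host gene start, Snhg1 (chr19:8723237-8723536, plus strand), beside the highest KLF3 peak, Snhg5 (chr9:88522848-88523147, minus strand), with KLF3 peaks alone, and Snhg8 (chr3:123508287-123508586, minus strand), with no peak and a difference close to that of Gas5.
Gas5: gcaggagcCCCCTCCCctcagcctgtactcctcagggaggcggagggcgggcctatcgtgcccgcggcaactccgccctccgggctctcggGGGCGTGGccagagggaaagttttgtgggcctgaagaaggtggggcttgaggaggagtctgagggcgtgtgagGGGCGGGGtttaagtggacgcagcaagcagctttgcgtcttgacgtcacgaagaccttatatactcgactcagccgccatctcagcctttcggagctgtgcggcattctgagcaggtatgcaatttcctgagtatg
Snhg1: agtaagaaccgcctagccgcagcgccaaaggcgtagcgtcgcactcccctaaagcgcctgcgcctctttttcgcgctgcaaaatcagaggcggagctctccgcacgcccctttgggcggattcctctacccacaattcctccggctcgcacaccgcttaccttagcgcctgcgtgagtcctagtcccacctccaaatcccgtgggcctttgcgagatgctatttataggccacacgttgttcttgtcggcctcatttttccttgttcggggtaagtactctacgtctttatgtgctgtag
Snhg5: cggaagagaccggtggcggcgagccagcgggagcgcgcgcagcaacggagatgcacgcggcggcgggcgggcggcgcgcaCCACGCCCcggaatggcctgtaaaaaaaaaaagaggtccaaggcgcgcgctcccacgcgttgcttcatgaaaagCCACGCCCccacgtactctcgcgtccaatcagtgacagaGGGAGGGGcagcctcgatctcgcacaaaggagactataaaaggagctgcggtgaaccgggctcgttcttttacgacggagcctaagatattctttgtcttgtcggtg
Snhg8: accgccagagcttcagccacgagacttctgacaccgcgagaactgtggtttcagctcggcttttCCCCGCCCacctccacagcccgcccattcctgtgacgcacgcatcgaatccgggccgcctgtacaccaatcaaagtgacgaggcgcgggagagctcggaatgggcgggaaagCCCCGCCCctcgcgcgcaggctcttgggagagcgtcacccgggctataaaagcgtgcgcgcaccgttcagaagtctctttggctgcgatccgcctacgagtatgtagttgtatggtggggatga
Gas5 and Snhg5 held 3 matches each, Snhg8 held 2 and Snhg1 none. The Gas5 matches began at positions -242, -159 and -86, where the base before the start is -1. Over the 10 windows 6 held a match, against 49.5% of 32841 RefSeq promoter windows of the same length. The stricter CCACACCC, which is contained in CCNCNCCC, was in 0 of 10 windows and in 3.56% of all windows. The shorter CACCC, which CCACACCC contains, was in 2 of 10 windows and in 57.5% of all windows on either strand. The letters TATAAA, counted anywhere in the window on either strand, were in 6 of 10 windows, against 13.6% of all windows. Position was not required, and in Snhg3 the only match lay after the annotated start, so a match need not be a TATA box.

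Most members started at or near a run of pyrimidines. Below, 10 bases before and 20 bases after each annotated start are shown for the tested members with a window, and capitals mark a stretch of at least 5 pyrimidines read from a C that lies within 10 bases of the start, which may sit inside a longer run opening with T.
Gas5: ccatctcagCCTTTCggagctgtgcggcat
Snhg1: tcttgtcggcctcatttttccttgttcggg
Snhg3: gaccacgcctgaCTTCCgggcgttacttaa
Snhg5: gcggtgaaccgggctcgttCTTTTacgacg
Snhg7: gatgctcggCCTCTCggcagccatggcggc
Snhg8: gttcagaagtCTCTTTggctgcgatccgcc
Snhg12: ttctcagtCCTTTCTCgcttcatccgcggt
Such a stretch was present in 6 of these 7 members, or 8 of the 10 with a window, and in 29.7% of all windows. Counted as whole runs of C and T with any first base, a rule added after seeing the data, all 7 had a run of at least 5 bases near the start, as did 9 of the 10 and 44.9% of all windows. The whole run was 9 bases long in Snhg1 and Snhg12, 7 in Snhg5 and Snhg8, 6 in Gas5 and Snhg7, and 5 in Snhg3. Annotated starts can be off by a few bases, and a match is a description of these letters only.

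Gas5 was the 1 tested member that rose, and peaks of both factors lay at its start. Its row (chromosome 1, 162965297 to 162968668, mm9) had 121 FPKM in J2E-KLF3-ER and 83.6 FPKM in J2E in the authors' deposited table. By the authors' deposited table that is 1.44-fold higher (log2 fold change 0.53, p = 0.0009, q = 0.0383). Gas5 was first described as a transcript that accumulates in growth-arrested cells and is known as an RNA that can bind the glucocorticoid receptor in human cells. Among the 9 members that the authors tested, 1 rose, 0 fell and 8 were not called by the authors' test, and 2 had an unadjusted p below 0.05, both with higher values in J2E-KLF3-ER, beside 15.4% of all tested genes in either direction. For comparison, 0.821% of all 9619 tested genes rose and 1.9% fell in the authors' deposited table. The median log2 fold change of the 9 members was 0.10, beside 0.03 over all tested genes, and 7 of the 9 were above 0, beside 53.5% of all tested genes, Snhg1 alone turning negative when centred on the median gene. On chromosome 1 the median tested gene lay at 0.16, and Gas5 stood 0.37 above it on the log2 scale.

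Snhg8 had a log2 fold change close to that of Gas5 and was not called. Its level was 180 FPKM in J2E-KLF3-ER and 128 FPKM in J2E by the authors' deposited table (log2 fold change 0.49, p = 0.0072, q = 0.121). In the authors' deposited table the called gene with the smallest log2 fold change in size, Eef2, also stood at 0.49. Snhg12 stood at 204 FPKM in J2E-KLF3-ER and 168 FPKM in J2E by the authors' deposited table (log2 fold change 0.28, q = 0.527). Snhg12 carries H/ACA and C/D snoRNAs in its introns.

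The remaining tested hosts had log2 fold changes between -0.20 and 0.18. Snhg5, the highest member in both lines and a host of U50-type snoRNAs, had 213 FPKM in J2E-KLF3-ER and 203 FPKM in J2E in the authors' deposited table (log2 fold change 0.07, q = 0.899). Snhg7 had 164 and 152 FPKM in J2E-KLF3-ER and J2E, Snhg1, the host of Snord22, had 126 and 124 FPKM, and the authors' deposited table puts their log2 fold changes at 0.10 and 0.02. Snhg4 had 67.3 and 59.4 FPKM in J2E-KLF3-ER and J2E, Snhg6 had 55.7 and 56.2 FPKM, and the authors' deposited table puts them at 0.18 and -0.01. Snhg3, the host of U17-type snoRNAs, was the tested member with the lowest log2 fold change, -0.20 (q = 0.726), with 107 FPKM in J2E-KLF3-ER and 123 FPKM in J2E in the authors' deposited table. None of these 6 genes was called, which does not show that they were equal in the 2 lines.

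**Figure D1:**
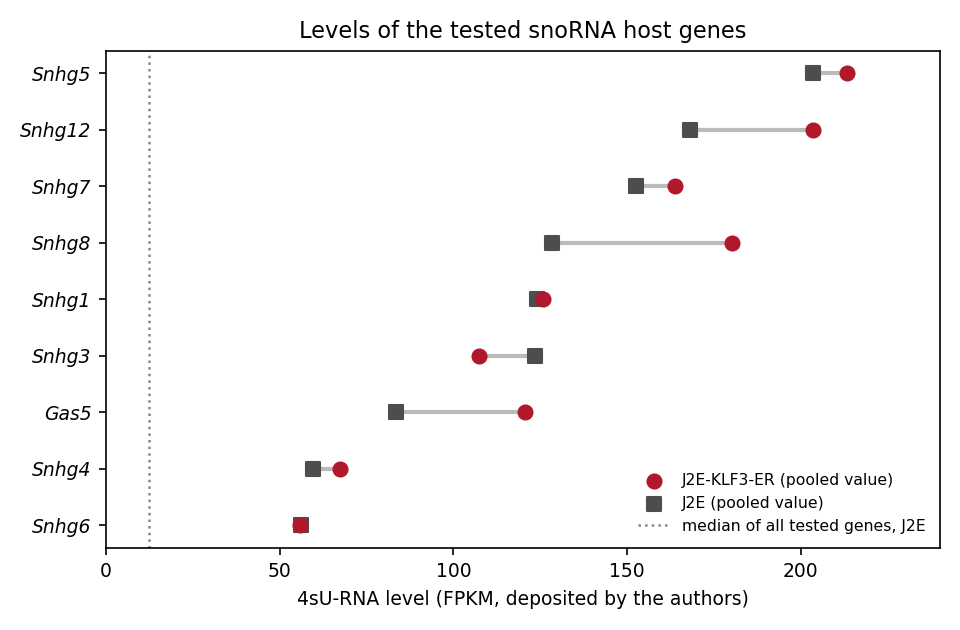
Pooled 4sU-RNA level (FPKM, horizontal axis) of the 9 tested host genes, with J2E-KLF3-ER as circles and J2E as squares; a grey bar joins the 2 values of a gene and the dotted line is the median of all tested genes in J2E, 12.4 FPKM. Gas5 and Snhg8 have the widest gaps for their level, and all 9 genes lie far right of the dotted line.

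Newly made RNA of these hosts was abundant. Per length, the 9 tested members ranged in level from 55.7 to 213 FPKM in J2E-KLF3-ER and from 56.2 to 203 FPKM in J2E in the authors' deposited table. The median tested gene had 12.6 FPKM in J2E-KLF3-ER and 12.4 FPKM in J2E. Snhg5 was above 98.6% of tested genes in J2E-KLF3-ER and Snhg6, the lowest of the 9, above 91.7%. Snhg5 ranked first and Snhg12 second of the members in both lines. Gas5 ranked sixth in J2E-KLF3-ER, between Snhg1 (126 FPKM) and Snhg3 (107 FPKM), and below Snhg3 in J2E, where it had 83.6 FPKM against 123 FPKM. With 1 value per line, the spread between neighbours in this order is unknown. The remaining 3 members were not tested by the authors: Snhg10 was at 3.29 FPKM in J2E-KLF3-ER and 1.66 FPKM in J2E, Snhg11 at 0.380 and 0.522 FPKM, and Snhg9 was listed at 0 in J2E-KLF3-ER and had 3.02 FPKM in J2E in the authors' deposited table. Among 799 genes with at least 50 FPKM in both lines, which include all 9 tested members, 1.75% rose and 1.63% fell, and the median log2 fold change was 0.03. The genes nearest to Gas5 in the levels of both lines, measured as the distance between log2 FPKM values over the 2 lines, were Mir4660 (distance 0.0715), the RNA helicase gene Ddx21 (0.107) and the ATP synthase subunit gene Atp5j2 (0.107). In the authors' deposited table their log2 fold changes were 0.43, 0.41 and 0.68 (q = 0.939, 0.129 and 0.0766), so none was called.

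**Figure D2:**
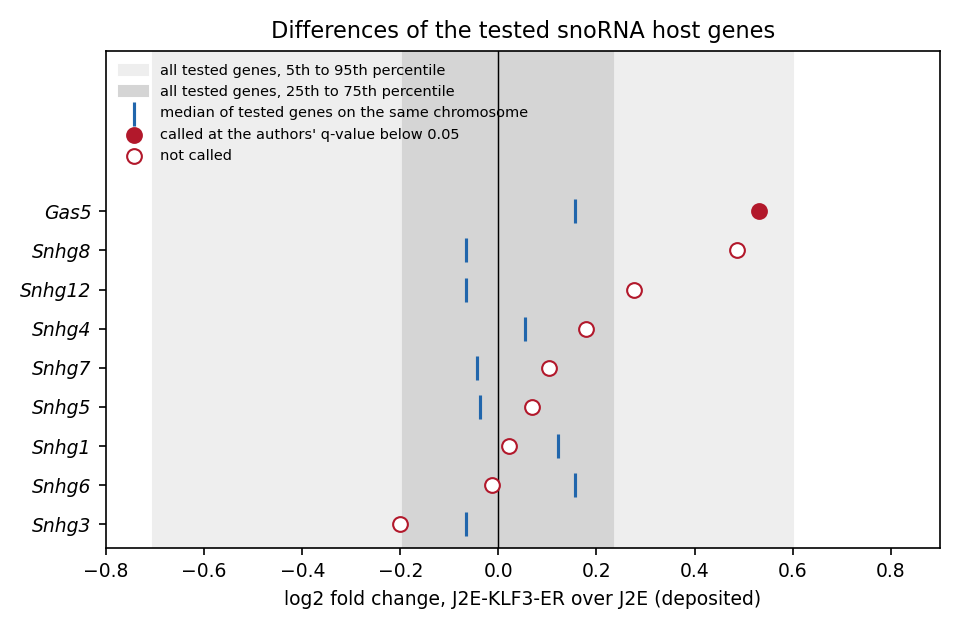
Deposited log2 fold change (horizontal axis, J2E-KLF3-ER over J2E) of the 9 tested host genes, with the called gene filled, the others open, and the chromosome's median as a blue tick; shaded bands hold the central part of all tested genes. Gas5 (0.53) and Snhg8 (0.49) lie right of the darker band, which ends at 0.23, and inside the lighter band, which ends at 0.60.

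KLF3 peaks were assigned to 5 of the 12 members (Gas5, Snhg3, Snhg4, Snhg5 and Snhg6), with 7 listed peaks in all, and KLF1 peaks to 3 (Gas5, Snhg3 and Snhg4), with 1 peak each. Each was a tested gene, so the counts are 5 and 3 of the 9 tested members. Over all 9619 tested genes, 32.3% had an assigned KLF3 peak, 19.1% a KLF1 peak and 13% both, and at 50 FPKM or more in both lines the shares were 30.7% for KLF3 and 19.5% for KLF1. Among all 23309 rows they were 16.1% and 11.9%. With summits within 1000 bp of the start, 5 tested members had an assigned KLF3 peak and 2 a KLF1 peak, against 29% and 10.7% of tested genes. The 3 members with a KLF1 peak also had a KLF3 peak overlapping it by at least 1 bp. Peak intervals, ranks and enrichment ratios are the authors' own, and each list has its own cells and antibody.

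At Gas5, peaks of both factors lay in the stretch between Gas5 and Zbtb37, a zinc finger gene. The near edge of the Zbtb37 row lies 906 bp upstream of Gas5. The KLF1 interval reached 906 bp and the KLF3 interval 710 bp upstream of the Gas5 start. KLF1 covered chromosome 1, 162964391 to 162965349, with 3 summits 146, 458 and 752 bp upstream of the Gas5 start and enrichments of 35.4, 16.3 and 14.7. KLF3 covered 162964587 to 162965351 with summits 104 and 462 bp upstream and enrichments of 18.8 and 4.35. The summits nearest the start, those the authors assigned to Gas5, were 42 bp apart and ranked 260 of 4579 KLF3 peaks and 130 of 3800 KLF1 peaks. The farther summits were assigned to Zbtb37, which had 3.28 FPKM in J2E-KLF3-ER and 2.56 FPKM in J2E in the authors' deposited table (log2 fold change 0.36, q = 0.596). Set against the promoter sequence above, the nearer summits, 104 and 146 bp upstream, lie between the matches at -159 and -86, although summits and sequence come from different builds and were compared only by distance to the start.

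Snhg1 had no peak by the authors' assignment, yet its first bases lay under 1 of the highest KLF3 peaks. The peak (chromosome 19, 8797634 to 8797996) had an enrichment of 35.7 and rank 9 of 4579. Its summit was 143 bp upstream of the Snhg1 start, and its edge overlapped the Snhg1 row by 20 bp. The authors assigned it to Slc3a2, the amino acid transporter heavy chain gene, as the nearest start site. The near edge of the Slc3a2 row lies 117 bp from Snhg1. The Slc3a2 start was thus nearer to this summit than the Snhg1 start. A KLF1 peak of enrichment 10.1 (rank 1791) lay in the same place, with its summit 123 bp upstream of Snhg1. Slc3a2 had 54.2 FPKM in J2E-KLF3-ER and 61.3 FPKM in J2E in the authors' deposited table (log2 fold change -0.18, q = 0.658). Neither gene at this site was called. Counted by position, 6 of the 9 tested members had a KLF3 summit within 1000 bp of their start and 3 a KLF1 summit, beside 31.6% and 11.7% of the 7086 tested genes whose strand RefSeq gives by symbol, counted the same way.

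Snhg3 carried the highest KLF1 peak assigned to a host gene, but away from its start. This peak (chromosome 4, 131912187 to 131912594) had an enrichment of 51.9 and rank 24 of 3800, and a KLF3 peak of enrichment 20.2 (rank 203) had its summit 8 bp from it. The summits were 2775 and 2783 bp upstream of Snhg3, within the row of Phactr4, a phosphatase and actin regulator gene, where the authors annotated the site as UTR. Phactr4 had 17.04 FPKM in J2E-KLF3-ER and 17.02 FPKM in J2E in the authors' deposited table. At the Snhg3 start itself there was a low KLF3 peak, with enrichment 4.87 and rank 4272, and no KLF1 peak.

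Snhg4 had closely matched peaks at its start on chromosome 18, of enrichment 15.1 for KLF3 and 19.9 for KLF1, with summits 29 and 16 bp upstream. Snhg5 and Snhg6 had KLF3 peaks without KLF1. At Snhg5 (chromosome 9, 88417739 to 88418204) the summits were 100 and 349 bp upstream with enrichments of 9.37 and 8.01, and at Snhg6 (chromosome 1, 9934160 to 9934375) the summit was 66 bp upstream with an enrichment of 8.41. The median KLF3 peak had an enrichment of 7.94 and the median KLF1 peak 9.72. No peak lay within 1000 bp of the starts of Snhg7, Snhg8 or Snhg12.

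**Figure D3:**
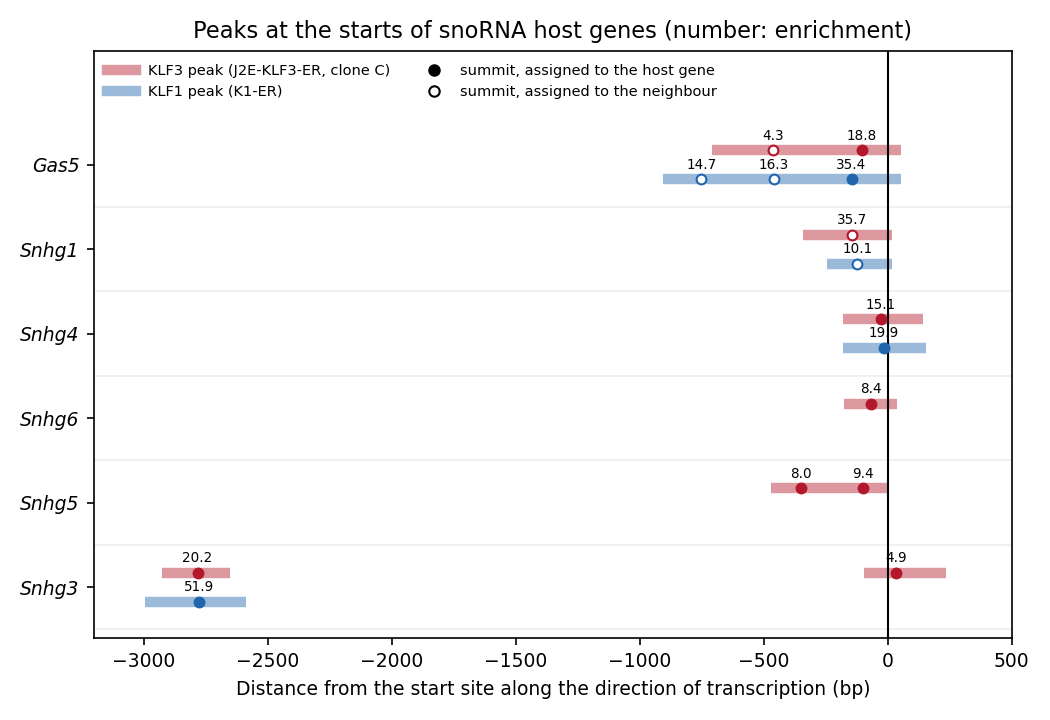
Peaks at the 6 host genes that had any, by distance from the start in the direction of transcription (bp, negative values upstream), with KLF3 in red and KLF1 in blue, bars for peak intervals, circles for summits and numbers for the authors' enrichment. The Gas5, Snhg1 and Snhg4 starts have both factors, and the Snhg3, Snhg5 and Snhg6 starts have KLF3 alone. The high Snhg3 peaks, of both factors, lie about 2775 bp upstream.

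Members with and without KLF3 at the start overlapped in RNA change. By position, the 6 tested members with a KLF3 summit within 1000 bp had log2 fold changes from -0.20 to 0.53, with a median of 0.05, and the 3 without one (Snhg7, Snhg8 and Snhg12) ranged from 0.10 to 0.49, with a median of 0.28, in the authors' deposited table. The 2 ranges overlap, and no test was made. The 6 include Snhg1, whose KLF3 peak the authors assigned to Slc3a2. They also include Snhg3, whose KLF3 peak at the start had an enrichment of only 4.87. Whether KLF3 binding bears on the RNA differences was not tested.

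The peak lists also name, for each peak, the nearest gene of an up set and of a down set, at any distance. Gas5 was the 1 member among these names, and it was given as up in both lists. In the KLF3 list the 79 names given as up were the 79 rising genes of the RNA table, so that column repeats the RNA calls. In the KLF1 list the column refers to K1 against K1-ER cells and names 557 genes as up. Its header does not say which cells are on top, so the direction of its up set is not known here. The estrogen receptor gene Esr1 is among the names given as up. Both K1-ER and J2E-KLF3-ER carry an estrogen receptor fusion, and whether Esr1 reads came from it was not tested. Of the 400 such genes tested in the RNA table, 6 rose (1.5%) and 52 fell (13%) in J2E-KLF3-ER. Over all tested genes the shares were 0.821% rising and 1.9% falling. Gas5 was 1 of the 6, with Esr1, Podxl, Polr2e, Ptma and Scd1. The KLF1 list names a changed gene where it is the nearest of its set to some peak, so absence of the other members from its columns does not show that they were unchanged in K1-ER cells.

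Snord47, the snoRNA row that shares the Gas5 locus, was not called, and snoRNAs without such a row were not assessed. The RNA table holds 13 snoRNA or scaRNA rows that share the locus of a member, in 9 members, and 12 of them were tested with values in both lines. None was called by the authors' test, and 1 had an unadjusted p below 0.05. In Gas5, Snord47, a box C/D snoRNA, had 367 FPKM in J2E-KLF3-ER and 512 FPKM in J2E by the authors' deposited table (log2 fold change -0.48, q = 0.924), beside 0.53 for its host. Snord22 in Snhg1 had 8927 FPKM in J2E-KLF3-ER and 4944 FPKM in J2E by the authors' deposited table (log2 fold change 0.85, p = 0.0277, q = 0.243), beside 0.02 for its host. Snord99 in Snhg12 had the log2 fold change farthest from 0, -2.84, with 194 FPKM in J2E-KLF3-ER and 1388 FPKM in J2E in the authors' deposited table, yet a q of 0.725. Its neighbours in the same host, Snora16a, Snora44 and Snora61, stand at -0.02, -0.36 and 0.24 in log2 fold change by the authors' deposited table. Of the 10 tested snoRNA rows in tested hosts, 9 had a lower log2 fold change than the host, Snord22 being the exception. The 12 tested rows had a median log2 fold change of -0.29, with 8 below 0. Over all 64 tested snoRNA and scaRNA rows with values in both lines the median was -0.01, and 0 of 73 tested were called by the authors' test, 2 having an unadjusted p below 0.05. Rows this short overlap their hosts, their FPKM values rest on few bases, and how the authors divided reads between host and snoRNA is not given in the sources used here. Snora24 in Snhg8 was listed at 0 in J2E-KLF3-ER and had 88.2 FPKM in J2E in the authors' deposited table, without a test. The 3 microRNA rows inside hosts were Mir5117 in Gas5 (1874 FPKM in J2E-KLF3-ER, listed at 0 in J2E), Mir1949 in Snhg4 (listed at 0 in J2E-KLF3-ER, 486 FPKM in J2E, q = 0.556) and Mir3069 in Snhg10 (listed at 0 in both lines) in the authors' deposited table.

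**Figure D4:**
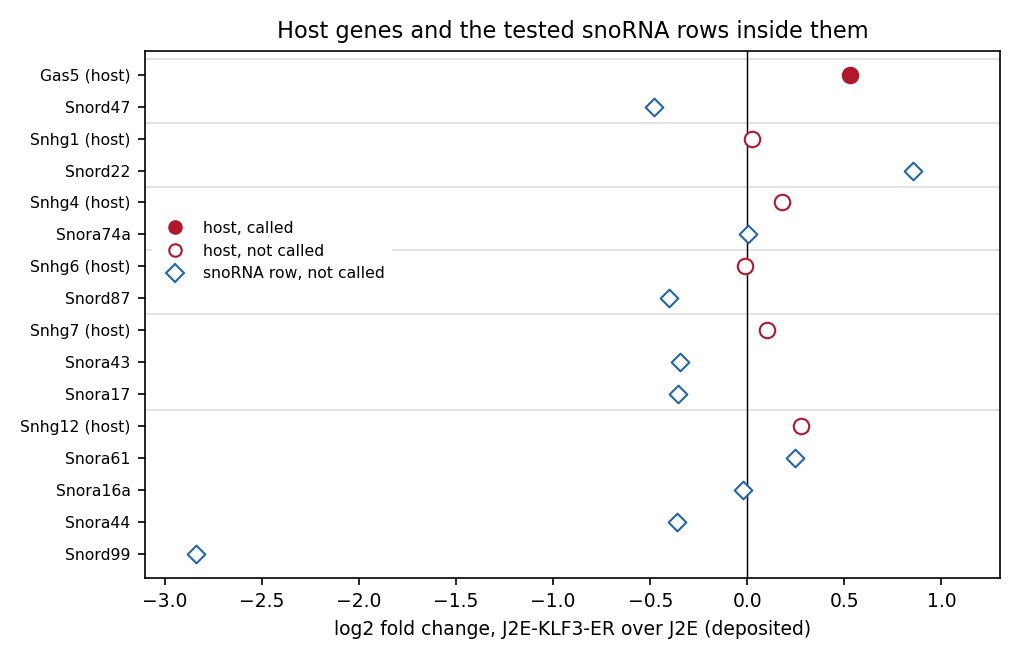
Deposited log2 fold change (horizontal axis, J2E-KLF3-ER over J2E) of 6 tested hosts (circles) and of the 10 tested snoRNA rows inside them (diamonds), grouped by host. Snord47 lies left of 0 under Gas5, Snord22 lies right of Snhg1, and Snord99 (-2.84) is farthest from its host.

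Genes next to the hosts were not called, in data where 0.821% of all tested genes rose and 1.9% fell. At shares this low, 0 calls among 9 neighbours say little about them. The nearest row of another gene lay 117 to 25122 bp from each of the 9 tested members, none of these neighbours was called by the authors' test, and 4 of 9 had the sign of the host. Prss12, a serine protease gene 949 bp from Snhg8, was the neighbour with the largest log2 fold change, 0.77 (p = 0.0062, q = 0.115), with 7.25 FPKM in J2E-KLF3-ER and 4.26 FPKM in J2E in the authors' deposited table. It was the 1 neighbour with an unadjusted p below 0.05.

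Protein-coding snoRNA hosts, most of them ribosomal protein and translation genes, included 2 that rose and none that fell of 32 tested. Their median log2 fold change was 0.20 in the authors' deposited table, and 28 were above 0, beside 53.5% of all tested genes. An unadjusted p below 0.05 was reached by 8 of the 32, beside 15.4% of all tested genes, and 1.75% of genes at 50 FPKM or more rose. Rpl3, a protein of the large ribosomal subunit, had 340 FPKM in J2E-KLF3-ER and 230 FPKM in J2E in the authors' deposited table (log2 fold change 0.56, q = 0.00995). Eef2, the translocation factor of translation, had 188 FPKM in J2E-KLF3-ER and 134 FPKM in J2E in the authors' deposited table (log2 fold change 0.49, q = 0.0322). Rpl3 had no assigned peak and Eef2 had a KLF3 peak. The machinery that handles these RNAs was not called, where 0.821% of all tested genes rose and 1.9% fell. For proteins of the box C/D particle and its assembly the count was 0 of 12 by the authors' test. None of the 12 had an unadjusted p below 0.05, and the median was 0.11, with 11 above 0 and 1 below. The particle's scaffold gene Nop56 had 286 FPKM in J2E-KLF3-ER and 269.8 FPKM in J2E, and its partner Nop58 had 133 and 130.4 FPKM, in the authors' deposited table. For the box H/ACA particle the count was 0 of 6 by the authors' test, none having an unadjusted p below 0.05. The median of the 6 was -0.04, with 2 above 0 and 4 below. The pseudouridine synthase gene Dkc1 and the core protein gene Nhp2 stand at -0.03 and -0.06 by the authors' deposited table. Of 18 nonsense-mediated decay genes 0 were called by the authors' test, and 2 had an unadjusted p below 0.05. The median of the 18 was 0.02, with 9 above 0 and 9 below. In that list Smg5 had 50.20 FPKM in J2E-KLF3-ER and 50.23 FPKM in J2E, and the exon junction protein gene Rnps1 had 57.6 and 44.4 FPKM (log2 fold change 0.38, q = 0.276), by the authors' deposited table.

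Further Snhg genes stand in the table under older names, which RefSeq gives as synonyms, and are not members by the rule. None was called by the authors' test, beside 0.821% rising and 1.9% falling of all tested genes. 1810032O08Rik (now Snhg16) had 81.6 FPKM in J2E-KLF3-ER and 105 FPKM in J2E by the authors' deposited table (log2 fold change -0.37, q = 0.332). Gm11974 (now Snhg15), 2810008D09Rik (now Snhg20) and 9430008C03Rik (now Snhg17) stand at 0.31, 0.15 and 0.02 in log2 fold change by the authors' deposited table. Rows C230091D08Rik and D7Ertd715e, both now under Snhg14, had -0.49 and -0.65 with unadjusted p of 0.01065 and 0.02785 in the authors' deposited table. No peak was assigned to any of these rows.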

How the data were processed

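The submitters' processing notes name TopHat2 2.0.10, MACS 1.4.2 and MACS2 with mm9; settings, and which tool compared the RNA groups, were not given. Per the file headers, the authors deposited 1 FPKM value per group with a log2 fold change, its p-value, its q-value and the score their test gave. Each deposited peak has a summit, its enrichment as a ratio, a rank and a nearest start site. The deposited q-values match a Benjamini-Hochberg adjustment over the 9619 genes tested, within 5.26e-07.

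Members, lists and tests were chosen with earlier results of these data known. Calls use the authors' q-value below 0.05, since with pooled values no fit could be made here. Separate cultures are not stated for the J2E libraries, so p-values measure only the spread between libraries. Named genes are every member, the called genes of each pathway list or its 2 highest in J2E, the nearest neighbours, small RNA rows within a host and the genes nearest to Gas5 in level. Row starts were shifted to count from 1, after which the start of each member with a peak equalled that in the peak lists. Distances were signed by strand. Promoter windows came from RefSeq (GRCm38.p6); for Gas5, with 2 windows, the one giving a gene length of 3374 bases, nearest to the row's 3372, was used. Python 3.11.15, statsmodels 0.14.6, pandas 2.3.3, matplotlib 3.10.9 and NumPy 2.4.6 were used, and the adjustment, overlap and motif code was tested on simulated data.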

Additional observations from a re-analysis of the deposited data

How the results depend on the processing

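A q-value threshold of 0.10, or adjustment over genes with at least 1 FPKM in either line, left the called hosts at 1 rising and 0 falling. That adjustment returned the same q-value for every tested host. Pseudocounts of 0.1 and 1 FPKM, no filter, and a filter of 1 FPKM left the median log2 fold change at 0.10. The tested hosts all had at least 55.7 FPKM, so none of these settings could have moved it far. At a q-value threshold of 0.01 the rising count was 0, as the q of Gas5 is 0.0383. Centred on all tested genes the median of the tested hosts was 0.0753, and centred on genes of the same chromosome it was 0.125. The pyrimidine stretch was in 8 members with a window, and in 9 as a whole run with any first base. Of 36 recomputed log2 fold changes of single hosts 34 kept their sign. Those with a pseudocount could not change sign, as the same constant was added in both lines, so only centring could do so. Snhg1 turned to -0.0052 when centred on all tested genes and to -0.10 when centred on its chromosome, where the median gene was at 0.12. Host genes with a KLF3 peak stayed at 5 with summits within 1000 bp or in the upper 50% of the list by enrichment, those with a KLF1 peak were 2 within 1000 bp, and requiring 50% overlap of both peaks left 3 with overlapping peaks. No paired analysis was possible because the deposited values are pooled by group, and for the same reason no replicate could be left out, the ethanol-treated J2E library included. Depth is unknown, so how small a change could have been detected cannot be given.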
